A study of Mus musculus with 28 samples.

Results

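H3K27me3 regions that carry no H3K4me3 were taken from wild-type naive mouse embryonic stem (ES) cells of the J1 line (strain 129S4/SvJae). Of the 19316 H3K27me3 regions found in both of 2 chromatin immunoprecipitation replicates, 14905 overlapped none of the 28066 H3K4me3 regions found in both H3K4me3 replicates. The other 4411 carry both marks and are called bivalent here. RNA was sequenced from wild-type (WT) cells, from cells lacking Dnmt1, Dnmt3a and Dnmt3b (DNMT TKO) and from cells lacking Tet1, Tet2 and Tet3 (TET TKO). Each line received an empty short-hairpin vector (shEmpty) or a hairpin against Kap1 (shKap1). The 6 groups hold 3 libraries each for WT and DNMT TKO and 2 each for TET TKO. All cells were grown in 2i with LIF, selected with puromycin and collected 5 days after transduction, so both arms carry a vector. The labels name 1 line per genotype, so an effect of the knockout and an effect of the line cannot be told apart. DNA hydroxymethylation (5hmC) was measured by hydroxymethylated DNA immunoprecipitation in WT cells alone, with 1 usable library and 1 input per arm. H3K27me3 and H3K4me3 were measured in WT cells without the knockdown, so the regions are those of WT.

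H3K27me3 is laid down by Polycomb repressive complex 2 and marks genes held silent but not locked. In ES cells it is best known at CpG-rich promoters of developmental genes, where it often lies together with H3K4me3, the mark of promoters open to transcription, a state called bivalent. KAP1 (gene Trim28) is recruited to repeats by KRAB zinc finger proteins and brings the H3K9me3 methyltransferase. 5hmC is made from methylated cytosine, mostly at CpG, by the TET enzymes.

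Stretches of 240 bases from 7 regions named below are shown as examples. CpG dinucleotides are in capitals, and all sequences are from the forward strand of mm9. The first 3 come from the regions with the highest 5hmC over input in shEmpty among the 11068 with at least 50 input reads over both inputs. Each is a short unit repeated in tandem with hardly any CpG, although the repeat annotation gives 82.8%, 0% and 1.1% of these regions as simple repeat.
Highest 5hmC, chr14:21074617-21074856: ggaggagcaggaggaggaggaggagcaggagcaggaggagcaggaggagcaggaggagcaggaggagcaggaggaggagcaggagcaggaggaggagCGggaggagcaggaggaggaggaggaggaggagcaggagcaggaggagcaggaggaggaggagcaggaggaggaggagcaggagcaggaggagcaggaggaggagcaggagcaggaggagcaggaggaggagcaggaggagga
Next highest, chr16:89905710-89905949: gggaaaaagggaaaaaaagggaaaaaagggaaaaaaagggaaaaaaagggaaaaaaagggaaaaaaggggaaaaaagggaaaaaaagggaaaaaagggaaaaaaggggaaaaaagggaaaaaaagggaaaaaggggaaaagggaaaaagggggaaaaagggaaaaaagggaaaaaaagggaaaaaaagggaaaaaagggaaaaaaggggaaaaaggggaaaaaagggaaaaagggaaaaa
Next highest, chr3:123380017-123380256: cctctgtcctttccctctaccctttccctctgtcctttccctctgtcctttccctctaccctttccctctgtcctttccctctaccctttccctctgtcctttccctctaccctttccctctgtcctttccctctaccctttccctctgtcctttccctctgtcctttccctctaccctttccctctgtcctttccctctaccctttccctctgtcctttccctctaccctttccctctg
By contrast, the following stretch from an immunoglobulin heavy chain gene segment (Gm16746) had no 5hmC read in control cells, and the one after it, rich in satellite repeat, took more 5hmC reads than any other H3K27me3 region without H3K4me3.
No 5hmC read, chr12:117100180-117100419: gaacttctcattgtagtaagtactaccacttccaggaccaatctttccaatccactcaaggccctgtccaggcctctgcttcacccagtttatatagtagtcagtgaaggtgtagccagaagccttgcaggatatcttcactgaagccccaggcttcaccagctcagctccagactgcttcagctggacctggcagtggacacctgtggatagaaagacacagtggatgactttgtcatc
Most 5hmC reads, chr9:35112781-35113020: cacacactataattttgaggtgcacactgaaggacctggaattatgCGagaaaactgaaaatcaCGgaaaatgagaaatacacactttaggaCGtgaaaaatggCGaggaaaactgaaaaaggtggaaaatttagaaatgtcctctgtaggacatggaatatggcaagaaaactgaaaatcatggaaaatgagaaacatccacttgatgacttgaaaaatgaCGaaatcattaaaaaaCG
The last 2 are from regions at the germline gene Sycp1 and in the Dux repeat array, where CpG is dense.
Sycp1, chr3:102739737-102739976: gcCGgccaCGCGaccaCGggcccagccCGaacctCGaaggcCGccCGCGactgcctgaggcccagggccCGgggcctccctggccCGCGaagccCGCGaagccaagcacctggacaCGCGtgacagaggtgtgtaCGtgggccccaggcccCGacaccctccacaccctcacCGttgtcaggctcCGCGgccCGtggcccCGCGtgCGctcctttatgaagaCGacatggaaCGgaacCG
Dux array, chr10:57694839-57695078: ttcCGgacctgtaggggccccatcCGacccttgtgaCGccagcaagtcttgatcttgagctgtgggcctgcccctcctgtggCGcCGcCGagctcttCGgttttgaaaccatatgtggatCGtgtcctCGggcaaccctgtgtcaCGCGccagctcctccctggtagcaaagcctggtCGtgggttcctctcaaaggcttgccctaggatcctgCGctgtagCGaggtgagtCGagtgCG
The stretches hold 1, 0 and 0 CpG in the tandem repeats, 0 in the immunoglobulin segment, 6 in the satellite-rich region, and 28 and 16 in the stretches of Sycp1 and the Dux array. These counts follow from how the stretches were picked. In the satellite-rich, Sycp1 and Dux regions the window with the most CpG was taken, and in the tandem repeats the most repetitive one. The Sycp1 region was picked for dense CpG, and the immunoglobulin region for low CpG among those with the lowest 5hmC.

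The RNA libraries held 18108431 to 29373696 reads in genes. Trim28 fell from a mean of 1750 to 165 CPM (read count scaled to library size) in WT, from 1870 to 427 CPM in DNMT TKO and from 1840 to 166 CPM in TET TKO, so that the residual level was highest in DNMT TKO. Dnmt1, Dnmt3a and Dnmt3b fell in DNMT TKO against WT, to 156, 7.65 and 25.2 CPM, and Tet1 and Tet2 fell in TET TKO, to 233 and 91.1 CPM. Tet3 was at 13.9 CPM in WT and 13.8 CPM in TET TKO. Reads were counted over all exons of a gene, which does not check a deletion of part of it. Markers of naive ES cells summed to 5170 to 5760 CPM in the control libraries and to 3190 to 4210 CPM after knockdown. In the WT knockdown 6 of 13 matched naive markers fell and none rose. Markers of primitive endoderm summed to 113 to 132 CPM in WT shEmpty and 59.9 to 81.5 CPM in WT shKap1. They summed to 142 to 154 CPM in DNMT TKO shEmpty and 143 to 150 CPM in TET TKO shEmpty, above WT without overlap, and to 74.4 to 88.7 and 79.6 to 81.5 CPM after knockdown in these lines. Those of formative and primed epiblast summed to 141 to 207 CPM in WT shEmpty and 47.5 to 54.4 CPM in DNMT TKO shEmpty, with Pou3f1 at 0 reads in all libraries, and those of trophoblast to 62.9 to 91.7 and 24.2 to 38.2 CPM. In WT shKap1 the trophoblast sum was 95.5 to 97.7 CPM, above that of WT shEmpty without overlap, with 4 markers higher and 1 lower, and the formative and primed sum was 98.7 to 148 CPM. In TET TKO shEmpty the trophoblast sum was 93.4 to 98.5 CPM. Fibroblast markers, of which Col1a1, Col1a2 and Tagln are near regions without H3K4me3, summed to 3.78 to 5.27 CPM in WT shEmpty, 6.04 to 8.56 CPM in DNMT TKO shEmpty and 8.14 to 8.19 CPM in TET TKO shEmpty. Their sum was 4.67 to 8.18, 11.2 to 12.2 and 5.29 to 5.65 CPM after knockdown in WT, DNMT TKO and TET TKO. Neural markers summed to 136 to 180 CPM over all libraries. The part of these shifts in the results below was not tested, and fewer cells of a type and less RNA per cell cannot be told apart.

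Regions without H3K4me3 were crowded on chromosomes 8 and 6. Chromosome 8 held 3375 of them, 27 per Mb, and chromosome 6 held 2772, 18.9 per Mb, against 0.531 to 7.33 per Mb (median 3.63) on the other chromosomes. Together these chromosomes carried 6147 regions, 41.2% of all, but 14.7% of the bivalent regions, which numbered 2.78 per Mb on chromosome 8 and 2.06 on chromosome 6, within the range of 0 to 3.07 over all chromosomes. Of 1 Mb windows, 91.7% on chromosome 8 and 90.0% on chromosome 6 held at least 1 region, against at most 67.2% on any other chromosome. The median was 18.5 regions a window on chromosome 8 and 9 on chromosome 6. The fullest window held 127 on each, so the regions were widespread but unevenly placed. Median read density of the hydroxymethylation input over H3K4me3 regions was taken relative to the median of all H3K4me3 regions. It was 1.03 on chromosome 8 and 1.01 on chromosome 6, inside the 0.971 to 1.03 of the other autosomes. The median log2 difference of all genes between DNMT TKO and WT was -0.29 on chromosome 6 and -0.18 on chromosome 8, 0.29 on chromosome 11, and between -0.09 and 0.05 on the other autosomes. The input of the H3K27me3 libraries was not used here, and what sets chromosomes 6 and 8 apart was not tested. Some results are therefore also given without them, but not every value that moves.

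**Figure D1:**
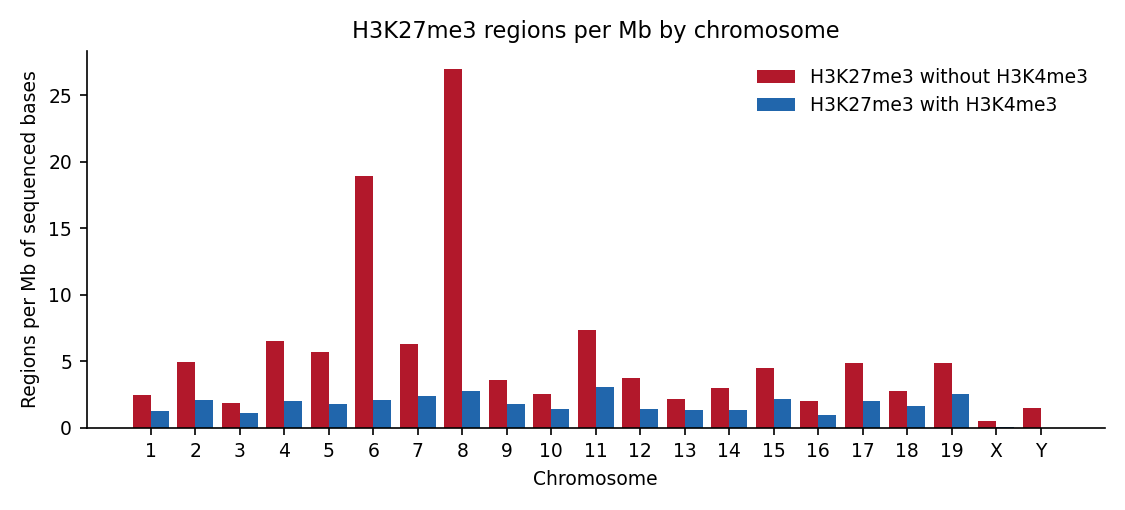
H3K27me3 regions per Mb of sequenced bases (vertical axis) on each chromosome (horizontal axis), without H3K4me3 in red and with H3K4me3 in blue. Chromosomes 8 (27 per Mb) and 6 (18.9 per Mb) stand above all others for regions without H3K4me3, while bivalent regions are at most 3.07 per Mb on any chromosome.

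The regions covered 32.1 Mb. Their median width was 1799 bases (quartiles 1199 and 2599), against 3199 for bivalent regions, and 97 were at least 10 kb wide. They were far less rich in CpG, with a median of 1.2 CpG per 100 bases (quartiles 0.819 and 1.64) against 3.22 in bivalent regions, yet above the 0.834 of the whole genome. Median GC content was 48.8% against 54.2% in bivalent regions. Long interspersed elements (LINEs) took up 6.69% of their bases, under the 20.4% of the genome, and long terminal repeat (LTR) elements 8.78%, under 11.4%, while short interspersed elements (SINEs) took up 8.7%, over the genome's 7.86%. All transposable elements (TEs) together made up 25.1% of bases, between the 10.1% of bivalent regions and the 40.7% of the genome. A gene start lay within 2 kb of 1932 regions, 13%, against 72.2% of bivalent regions. Another 6114 (41.0%) lay in a gene body away from a start, and 6859 (46.0%) outside genes. Exons were touched by 23.6%. A KAP1-bound region overlapped 146 (0.98%), KAP1-dependent H3K9me3 174 (1.17%), KAP1-independent H3K9me3 88 (0.59%) and an imprinting control region 1.

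The nearest H3K4me3 region was a median of 24161 bases away (quartiles 7521 and 63499). Near the threshold of the definition, 645 regions had H3K4me3 within 1 kb without overlap, and 191 bivalent regions had H3K4me3 over less than 10% of their bases. The widest region, chr11:3025401-3100199, spans 74799 bases and holds the starts of Sfi1, a centrosome gene, and several pseudogenes. The next, chr5:14902401-14964199, is 61799 bases wide and lies in an array of the Speer genes, which are expressed in testis. Another wide region, chr1:87479201-87516399 (37199 bases), covers Sp110 and Sp140, which encode nuclear body proteins. The hydroxymethylation input of shEmpty held 32810 reads in the chromosome 11 region and 8170 in the chromosome 5 region, beside 1665 in this one. The first 2 are thus far denser in input reads, and whether they hold sequence present in many copies was not tested.

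5hmC over input followed CpG density in regions without H3K4me3. The values are log2 ratios of reads, each scaled to the reads of all 6 region sets of its library, and 14667 of the 14905 regions had enough input reads (at least 10 over both inputs). In control cells the median was -1.35 in regions with under 1 CpG per 100 bases, -0.54 at 1 to 2, 0.02 at 2 to 4 and 0.35 at 4 or more. Bivalent regions did not show this order, with medians of -1.05, -0.64, -0.63 and -1.09 in the same classes. Some end classes were small, with 30 passing bivalent regions under 1 CpG per 100 bases and 75 regions without H3K4me3 at 4 or more. The latter had a median of 12 input reads in shEmpty. Across regions of 1 library pair, Spearman's rho between CpG density and 5hmC over input was 0.51 without H3K4me3 and -0.26 in bivalent regions, where neighbouring regions share library and base composition. Without chromosomes 6 and 8 rho was 0.47. With 1 library per condition there is no test, and these differences within a library pair do not depend on how libraries were scaled.

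**Figure D2:**
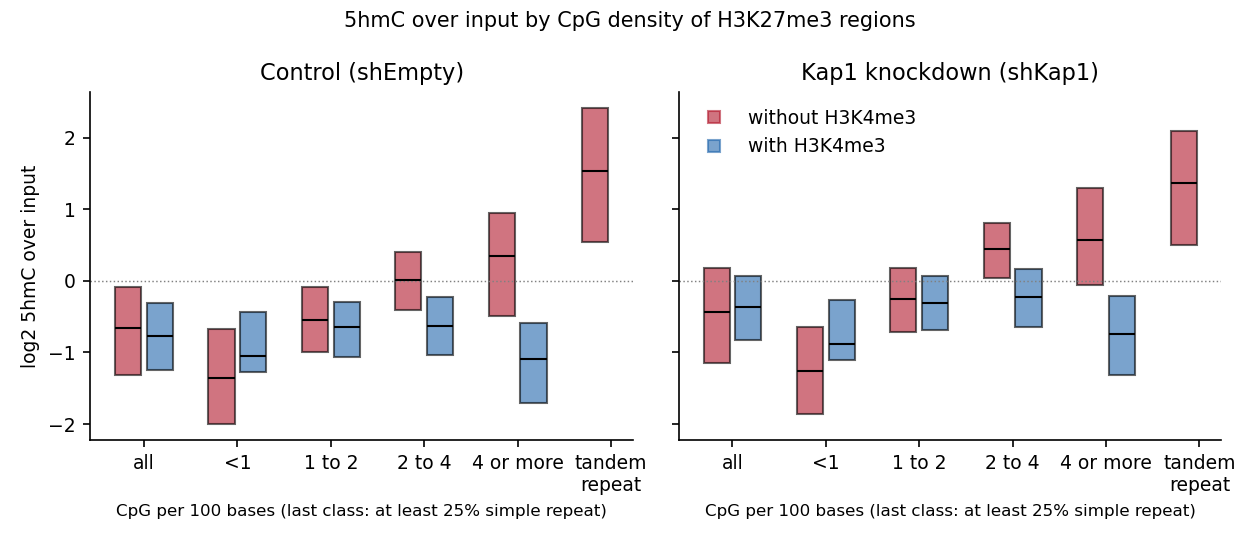
Log2 5hmC over input (vertical axis) in H3K27me3 regions without H3K4me3 (red) and with H3K4me3 (blue), by CpG per 100 bases and, at the right, in regions made up of at least 25% simple repeat. Left, control; right, Kap1 knockdown. Lines are medians over regions and boxes run from the lower to the upper quartile, with 1 library pair per panel. In the control the red medians climb from -1.35 to 0.35 with CpG density and reach 1.53 in tandem repeats. The red class at 4 or more holds 75 regions and the blue class under 1 holds 30.

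Over all regions without H3K4me3 the median was -0.66 (quartiles -1.32 and -0.08) in shEmpty and -0.43 (-1.15 and 0.18) in shKap1, and the median change of a region was 0.22. The sign of these overall values rested on the scaling. One satellite-rich region of chromosome 9, chr9:3000001-3038399, which is no member, took 35.9% of the 5hmC reads of shEmpty and 22.5% of those of shKap1. Scaled without it, the medians were -0.36 and -0.5 and the change -0.15. Scaled to H3K4me3 regions alone, they were 0.62, 0.46 and -0.17. No direction of the change on knockdown is therefore given, and values of both arms at single regions below carry the same limit. Within the control pair, regions with a KAP1-bound site were at a median of -0.07 (143 regions passed), those with KAP1-dependent H3K9me3 at -0.52 (173) and those with KAP1-independent H3K9me3 at -1.31 (88). Regions with at least 50% of their bases in LTR sequence were at -1.21, in LINE at -1.4 and in SINE at -0.48. Those with a gene start within 2 kb were at -0.59 and those outside genes at -0.77.

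Regions annotated as simple repeat did not follow the order by CpG. The 145 passing regions with at least 25% simple repeat had a median of 1.53 in shEmpty and 1.37 in shKap1. Of these, 33 held no CpG at all and were at 2.39 and 2.01, while all 151 passing regions without CpG were at -0.9. Reads per base in the simple-repeat regions, relative to all H3K27me3 regions without H3K4me3, were 6.44 in the 5hmC library of shEmpty against 1.34 in its input, and 4.57 against 1.29 in shKap1. Among the 11068 regions with at least 50 input reads, the highest, chr14:21073201-21076199, is 82.8% simple repeat, with 623 reads of 5hmC against 44 of input in shEmpty (log2 3.02, 95% interval 2.61 to 3.53) and 447 against 60 in shKap1 (2.44, 2.07 to 2.88). The next, chr16:89905601-89905999 in an intron of Tiam1, a Rac activator, holds no CpG and had 247 reads against 17 in shEmpty (3.01, 2.38 to 3.89) and 73 against 37 in shKap1 (0.53, -0.04 to 1.16). The one after it, chr3:123378801-123383999 in Ndst3, a heparan sulfate enzyme, had 1891 reads against 141 (2.97, 2.73 to 3.23) and 776 against 175 (1.71, 1.48 to 1.96). Intervals are exact (Clopper-Pearson) and cover counting error only. What gives this signal was not tested.

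At the other end, chr12:117100001-117100599, over the immunoglobulin segment shown above, had 0 reads of 5hmC against 26 of input in shEmpty (upper bound of the log2 ratio -3.48) and 4 against 38 in shKap1. A second region without a 5hmC read in shEmpty, chr6:90797601-90798999, had 31 input reads and an upper bound of -3.75. The satellite-rich region chr9:35112601-35113599, chosen after its values were seen, took 25.9% of all 5hmC reads of the members in shEmpty, with 300786 reads against 102076 of input, and 17.6% in shKap1, with 210808 against 181353.

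The study describes the RNA replicates of all 3 lines as independent experiments. RNA was measured for 1986 genes with a start within 2 kb of a region without H3K4me3. They include 1293 protein-coding genes, 61 lincRNA genes and 63 immunoglobulin segments. No read was found for 579 of them, 1028 had under 16 reads over the 16 libraries and 958 were tested, so the counts below are over the 958. The filter includes the knockdown libraries, so a gene silent in control cells can pass it through the group where it rises. Counts of higher and lower genes are thus not independent of the filter. The 958 had a median of 0.921 CPM, beside 8.06 CPM for all genes tested. A call is an edgeR adjusted p under 0.05 and at least a 2-fold difference. In the WT knockdown 174 of the 958 genes rose (18.2%) and 102 fell (10.6%), beside 10.8% and 6.54% of all genes tested. Knockdown in DNMT TKO raised 159 and lowered 46 (16.6% and 4.8%, beside 10.1% and 2.42%), and knockdown in TET TKO raised 144 and lowered 77 (15% and 8.04%, beside 8.05% and 4.46%). Without the knockdown, 133 genes were higher and 125 lower in DNMT TKO than in WT (13.9% and 13%, beside 8.23% and 8.05%), and 74 higher and 66 lower in TET TKO (7.72% and 6.89%, beside 5.66% and 4.8%). The 66 lower became 39 without TET TKO shEmpty replicate 1 and 42 without replicate 2, and the 77 lowered by the TET TKO knockdown became 49 without TET TKO shKap1 replicate 1 and 51 without replicate 2. The knockdown effect is a signed log2 change, so a higher effect can be a larger rise or a smaller fall. It was higher in DNMT TKO than in WT for 70 genes and lower for 30 (7.31% and 3.13%, beside 4.66% and 2.48%). Between TET TKO and WT it was higher for 30 and lower for 31 (3.13% and 3.24%, beside 2.08% and 2.13%), a total of 61 that was 31 to 38 when any 1 of the 4 TET TKO libraries was left out.

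The comparison with all genes was also made by level, the mean CPM over all 16 libraries, knockdowns included. A gene silent in control cells can thus enter the higher class through the group where it rises. The shares by level are therefore not independent of the changes they describe. Of the 492 tested genes under 1 CPM, 18.1% rose and 9.76% fell in the WT knockdown, beside 15.3% and 6.97% of all genes under 1 CPM. At 1 CPM or more it was 18.2% and 11.6%, beside 8.81% and 6.35%. In the DNMT TKO knockdown 14.4% of the genes under 1 CPM rose, fewer than the 16% of all genes under 1 CPM, and 5.49% fell, beside 2.76%, while at 1 CPM or more 18.9% rose, beside 7.39%. DNMT TKO against WT under 1 CPM had 11% higher, beside 11.3%, and 13.6% lower, beside 9.44%, and at 1 CPM or more 17% higher, beside 6.85%. In the TET TKO knockdown 13% of the genes under 1 CPM rose, beside 11% of all genes under 1 CPM, and at 1 CPM or more 17.2%, beside 6.75%. TET TKO against WT had 7.72% higher under 1 CPM, beside 6.91%, and 7.73% at 1 CPM or more, beside 5.11%. The difference between the levels was not tested. Of 2610 tested genes near bivalent regions alone, 19.5% were higher and 12.1% lower in the WT knockdown, and 13.1% were higher in TET TKO than in WT, a difference between the sets that was not tested. Genes with no H3K4me3 within 2 kb of their own start, 526 of the 958, rose in 21.1% and fell in 11%. Shares were close on and off chromosomes 6 and 8 in the WT knockdown, at 16.2% of 216 and 18.7% of 742 genes higher. In DNMT TKO against WT, 14.8% were higher and 15.3% lower on these chromosomes, and 13.6% and 12.4% off them. All genes tested on chromosomes 6 and 8 were at 7.18% higher and 11.7% lower in that comparison.

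**Figure D3:**
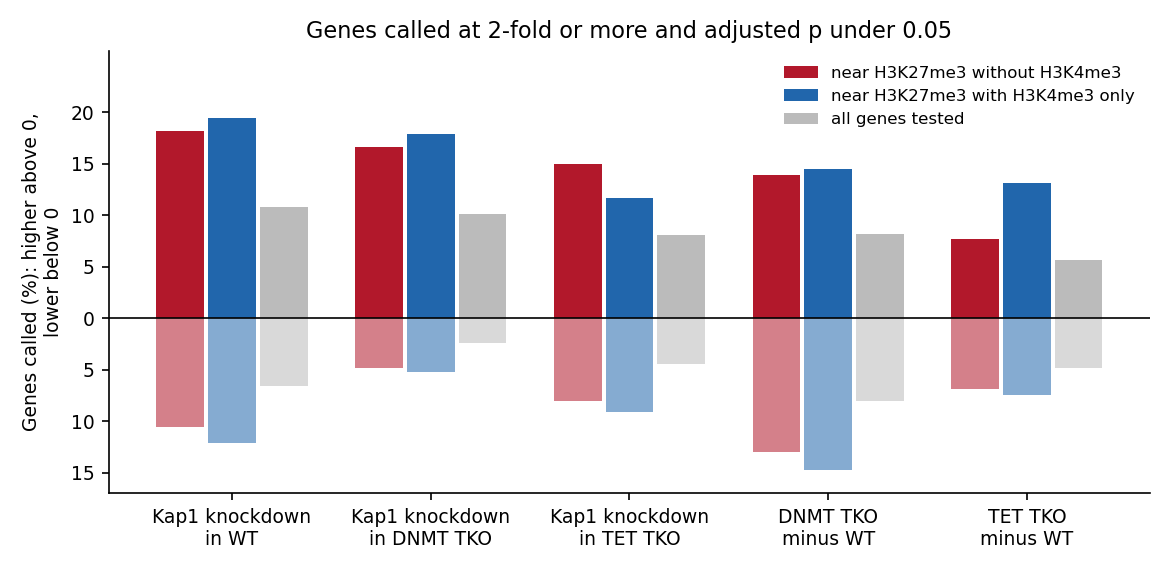
Percent of tested genes called higher (above 0) or lower (below 0, paler) in each of 5 comparisons, for genes near H3K27me3 regions without H3K4me3 (red), genes near bivalent regions alone (blue) and all genes tested (grey). In the WT knockdown 18.2% of the first set were higher, beside 19.5% of the second and 10.8% of all genes.

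Among the largest rises in the WT knockdown were Hoxb1, Wnt8a, Rxrg and Rarres2. Hoxb1, a homeobox gene of the hindbrain (chr11:96227066-96229570), was at 0.0555, 0.178 and 0.212 CPM in the WT shEmpty libraries and at 9.86, 20.0 and 19.2 CPM in WT shKap1. The groups do not overlap, and the log2 change was 6.63 ± 0.37 (SE, edgeR adjusted p = 3.7e-10). In DNMT TKO shKap1 it was at 0.192, 0.235 and 0.223 CPM and in TET TKO shKap1 at 0.324 and 0.308 CPM, and the lowest WT shKap1 library was above all of these. DNMT TKO shEmpty held 3 reads and TET TKO shEmpty none. Hoxb1 was also called higher in the knockdown of DNMT TKO and of TET TKO, and lower in TET TKO shEmpty than in WT shEmpty. The difference of the knockdown effect from WT was not called (edgeR adjusted p = 0.0514 for DNMT TKO and 0.82 for TET TKO). Against the limit of 3 reads over the group, the level in TET TKO shKap1 was at least 5.79-fold higher than in its control. Wnt8a, a WNT ligand of the early embryo, was at 2.05, 1.32 and 1.1 CPM in WT shEmpty and at 62.3, 42.3 and 38.1 CPM in WT shKap1 (5.04 ± 0.49, edgeR adjusted p = 3.56e-06). It rose from a mean of 0.311 to 3.12 CPM in DNMT TKO and from 0.276 to 3.45 CPM in TET TKO. Rxrg, a retinoid X receptor, rose from a mean of 0.0776 to 2.66 CPM in WT (4.97 ± 0.48). Rarres2, which encodes the secreted protein chemerin, rose from 0.0607 to 1.84 CPM (4.96 ± 0.51). Both were also called higher in the knockdown of the other lines.

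The largest rise in WT among genes with at least 200 reads and groups that do not overlap was that of a long noncoding RNA, 2810429I04Rik (chr13:3477489-3493644), whose start lies by a KAP1-bound region of 399 bases with 7.27 CpG per 100 bases. It was at 0.111, 0.249 and 0.177 CPM in WT shEmpty and at 35.2, 34.8 and 36.4 CPM in WT shKap1. In TET TKO it was already at 11.5 and 11.7 CPM in shEmpty and reached 55.5 and 57.7 CPM in shKap1, and in DNMT TKO it went from a mean of 1.25 to 22.9 CPM. The control level was higher in TET TKO than in WT (5.9 ± 0.28, edgeR adjusted p = 6.71e-11). 5hmC over input at its region was 1.16 in shEmpty and 1.53 in shKap1, from 37 reads against 9 and 42 against 10. The difference between the arms depends on the scaling, so no direction on knockdown is given.

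The largest falls in the WT knockdown included Zmat4, Calb2 and Gm9732. Zmat4, a zinc finger gene on chromosome 8, was at 26.3, 13.2 and 13 CPM in WT shEmpty and at 1.05, 1.56 and 1.81 CPM in WT shKap1, with no overlap (-3.55 ± 0.46, edgeR adjusted p = 2.59e-05). It was at 0.963 CPM on average in DNMT TKO shEmpty, and fell from 14.9 to 2.14 CPM in TET TKO. Calb2, the calcium-binding protein calretinin, fell from a mean of 4.49 to 0.376 CPM in WT (-3.49 ± 0.32) and from 9.7 to 0.316 CPM in TET TKO (-4.92 ± 0.39). Gm9732 fell in all 3 lines and its control level was higher in DNMT TKO (4.72 CPM) and TET TKO (7.97 CPM) than in WT (0.792 CPM).

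**Figure D4:**
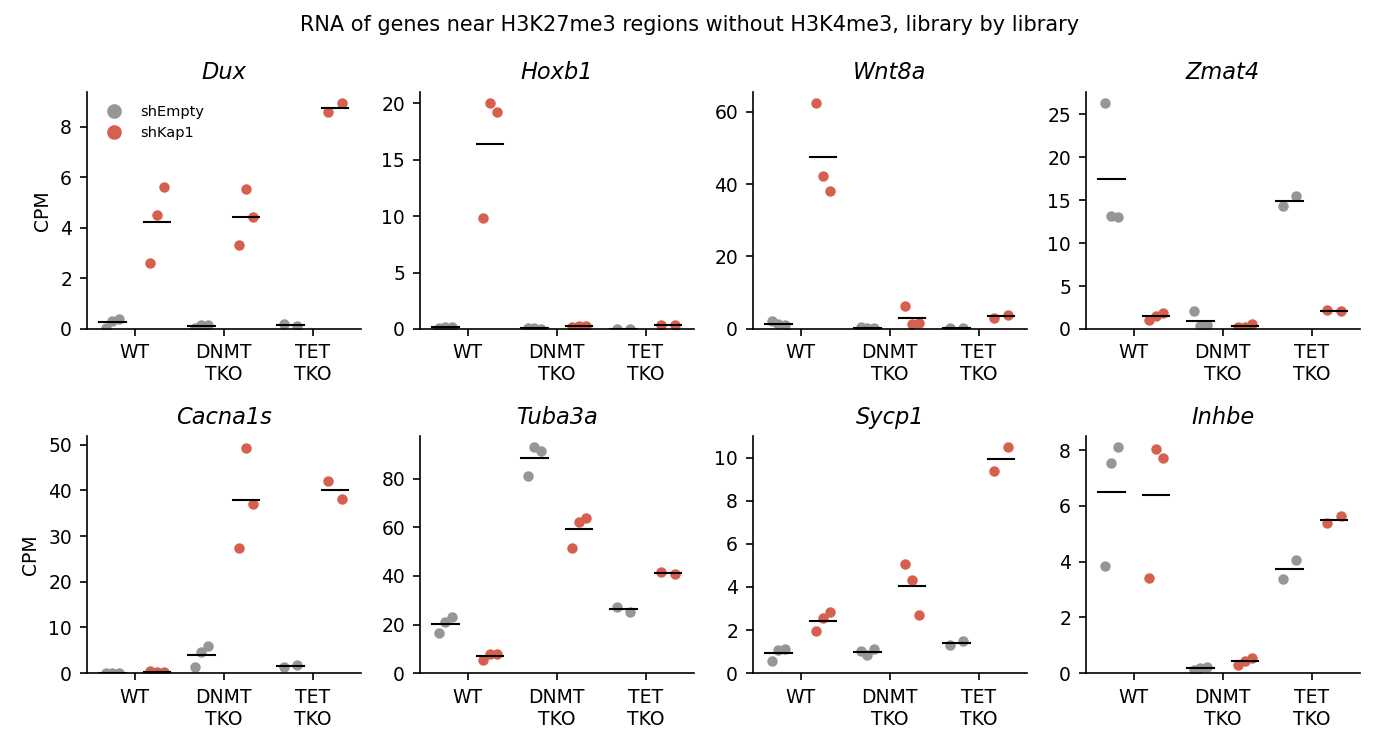
CPM (vertical axes, linear, each from 0) of 8 genes near H3K27me3 regions without H3K4me3 in every RNA library, by line (horizontal axis). Grey points are shEmpty libraries, red points shKap1 libraries and black lines group means (n = 3 for WT and DNMT TKO, 2 for TET TKO). Hoxb1 is above 9 CPM in the WT shKap1 libraries and at most 0.324 CPM in all others, though called higher in the knockdown of each line. Cacna1s is highest in the knockdown of both knockout lines, and Dux is higher in the knockdown of each line.

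The knockdown effect of some genes differed between lines. Some genes near these regions have H3K4me3 close by as well. Olfml2a, Slpi, Inhbe, Sema5b, Calb2, Tmem132c, Cacna1s, Neurod1, Dlk1, Dlx4, Hey2, Mov10l1 and Grb10 have an H3K4me3 region within 2 kb of their own start, and all of these from Calb2 on also lie within 2 kb of a bivalent region. Olfml2a, an olfactomedin-like secreted protein, was at 0.102, 0.138 and 0.154 CPM in DNMT TKO shEmpty and at 30.9, 22.5 and 21.4 CPM in DNMT TKO shKap1. In WT it was at a mean of 0.346 and 0.503 CPM and in TET TKO at 0.0552 and 0.193 CPM. The difference of its knockdown effect from WT was 7.0 ± 0.7 on the log2 scale (edgeR adjusted p = 1.96e-06). Slpi, a secreted protease inhibitor, had 3 reads in DNMT TKO shEmpty and was at 21.5, 12.8 and 13.3 CPM in DNMT TKO shKap1, beside at most 0.105 CPM in every library of WT and TET TKO, but the difference of its knockdown effect from WT was not called (6.52 ± 3.01, edgeR adjusted p = 0.153). 1700018A04Rik was at a mean of 18.8 CPM in DNMT TKO shKap1 and 1.1 CPM in TET TKO shKap1, with 0.0849 CPM in WT shKap1. In TET TKO, Tmem132c, a transmembrane protein gene, rose from 7.26 and 7.06 CPM to 75.8 and 69.9 CPM, and its knockdown effect there differed from that in WT by 4.19 ± 0.34 (edgeR adjusted p = 3.78e-07). Residual Trim28 was higher in DNMT TKO than in the other lines, and its part in these differences was not tested.

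Cacna1s, the calcium channel subunit of skeletal muscle (chr1:137949327-138016399), was among the largest rises of DNMT TKO over WT. It was at 0.0555, 0.142 and 0.106 CPM in WT shEmpty and at 1.37, 4.63 and 5.98 CPM in DNMT TKO shEmpty (5.19 ± 0.68, edgeR adjusted p = 3.68e-05), with 1.37 and 1.73 CPM in TET TKO. The knockdown raised it to 27.3, 49.4 and 37.1 CPM in DNMT TKO and to 42.1 and 38.1 CPM in TET TKO, and it was at 0.472, 0.26 and 0.267 CPM in WT shKap1, though the difference of the effect from WT was not called (edgeR adjusted p = 0.501 and 0.254). Spesp1, a sperm protein gene, was at a mean of 0.196 CPM in WT and 2.8 CPM in DNMT TKO (3.72 ± 0.55), and at 28.8 CPM in DNMT TKO shKap1. Inhbe, an inhibin subunit gene, was at 3.83, 7.54 and 8.1 CPM in WT and at 0.102, 0.173 and 0.231 CPM in DNMT TKO (-5.2 ± 0.45, edgeR adjusted p = 7.56e-08). Scnn1a, a sodium channel subunit, was lower in DNMT TKO, at 0.198 CPM against 5.91 (-4.87 ± 0.41). In TET TKO against WT, H2-T3, a class Ib histocompatibility gene, had 1 read over the WT shEmpty libraries and was at 3.07 and 2.29 CPM. Mamstr, a muscle transcription coactivator, was at 5.65 CPM in TET TKO against 0.351 (3.91 ± 0.36), and D630013G24Rik at 0.108 CPM against 4.7 (-5.38 ± 0.5).

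Developmental gene lists lay mostly at bivalent regions. Of all 37991 genes, 1986 had a region without H3K4me3 within 2 kb of the start and 3810 a bivalent one (a gene can have both). Of 39 Hox genes, 7 had a region without H3K4me3 at this distance and 35 a bivalent one. Hoxb1 and Hoxb3 of the 7 rose in the WT knockdown, beside 10 higher and 2 lower of the 37 tested in the whole list, and Hoxc5, Hoxc6 and Hoxc10 were higher in DNMT TKO than in WT, beside 12 higher and 3 lower in the whole list. Of 190 developmental transcription factors 28 were near such a region and 131 near a bivalent one. Among the 20 tested, 6 rose and 5 fell in the WT knockdown, including Pax6 of eye and forebrain, which rose from 1.16 to 7.61 CPM (2.77 ± 0.41), and Neurod1 of neurons, which fell from 7.16 to 2.65 CPM (-1.42 ± 0.35). In the whole list 42 rose and 24 fell of 161 tested, and of all genes 10.8% rose and 6.54% fell. Signalling ligands and receptors had 20 of 158 near such regions, of which 18 were tested, 6 rose (Wnt8a, Wnt10b, Wnt6, Bmp8b, Gdf10 and Pdgfrl) and 2 fell in the WT knockdown, beside 26 higher and 25 lower of 146 in the whole list. Ion channels and transmitter receptors had 20 of 224, of which 9 were tested, none rose and Kcnh3, Kcnn4 and Kcnip3 fell in the WT knockdown, beside 29 higher and 29 lower of 168 in the whole list. Of 1442 olfactory and vomeronasal receptors 31 were near such a region and none of them had enough reads to be tested. Clustered protocadherins had 8 of 24, with 2 tested. Of these Pcdhb19 rose in the WT knockdown, beside 3 higher and 0 lower of 7 tested in the whole list. Polycomb genes had 1 of 34, Yaf2, which was not called. Hoxc5, Hoxc6, Hoxc10, Wnt10b, Gdf10, Pdgfrl, Kcnh3 and Yaf2 have an H3K4me3 region within 2 kb of their own start. Median log2 changes of the tested members in the WT knockdown were -0.19 for Hox genes, -0.26 for developmental transcription factors, -0.08 for signalling genes and -0.18 for ion channels, beside -0.01 over all genes.

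Germline genes that DNA methylation is known to silence gave 8 of 43 near such regions and 5 near bivalent ones. Of all 37991 genes, 1986 were near such regions and 3810 near bivalent ones. All 8 were tested. In the WT knockdown Tdrd1, Tdrkh, Sycp1 and Slc25a31 rose and Tuba3a and Tuba3b fell, beside 9 higher and 7 lower of 42 tested in the whole list. In the TET TKO knockdown 5 rose and none fell, beside 15 and 4 of 42. Of all genes tested, 10.8% rose and 6.54% fell in the WT knockdown, and 8.05% and 4.46% in the TET TKO knockdown. Sycp1, a protein of the synaptonemal complex (chr3:102622422-102740023), was at 0.555, 1.07 and 1.13 CPM in WT shEmpty and at 1.94, 2.55 and 2.83 CPM in WT shKap1 (1.36 ± 0.28, edgeR adjusted p = 0.00059), and reached 9.4 and 10.5 CPM in TET TKO shKap1. Its region had 7.81 CpG per 100 bases and a 5hmC over input of 1.28 in shEmpty and 1.62 in shKap1, from 94 reads against 22 and 132 against 31. As the difference between the arms depends on the scaling, no direction on knockdown is given. Tdrkh, of the piRNA pathway, rose from 0.451 to 5.2 CPM in WT (3.53 ± 0.24). Without the knockdown, 4 of the 8 were higher in DNMT TKO than in WT (Mov10l1, Tdrkh, Tuba3a, Tuba3b) and Tdrd1 lower, beside 20 higher and 3 lower of 42. Of all genes tested 8.23% were higher and 8.05% lower. Tuba3a, a testis alpha tubulin, was at 16.4, 21.0 and 23.0 CPM in WT and at 81.2, 93.0 and 91.3 CPM in DNMT TKO (2.13 ± 0.12, edgeR adjusted p = 7.07e-10). Tuba3a and Tuba3b are near-identical and only unique reads were counted, so reads that fit both are left out and their levels are uncertain. Between TET TKO and WT shEmpty edgeR called none of the 8, beside 12 higher and 5 lower of 42. Of all genes tested 5.66% were higher and 4.8% lower in TET TKO. Imprinted genes gave 3 of 52, Mest, Grb10 and Dlk1, of which Dlk1 rose in the WT knockdown from 0.526 to 1.2 CPM (1.16 ± 0.29), beside 17 higher and 3 lower of 49 tested in the whole list. Dlk1 also rose in the DNMT TKO knockdown (1.09 ± 0.24) and was higher in DNMT TKO than in WT (1.05 ± 0.28). Mest was lower than in WT in DNMT TKO (-1.23 ± 0.24) and TET TKO (-1.17 ± 0.27) and rose in the TET TKO knockdown (1.0 ± 0.29). The 2-cell genes Sp110 and Gm4340, the only 2 of 22 near such regions, rose in all 3 knockdowns, beside 19, 18 and 19 of the 21 tested in the whole list for WT, DNMT TKO and TET TKO. In WT, Sp110 rose from 0.28 to 1.08 CPM and Gm4340 from 0.881 to 6.8 CPM.

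Few genes had a region that was also KAP1-bound or carried KAP1-dependent H3K9me3. With KAP1 at the region, 16 genes were tested: 8 rose and none fell in WT, 10 rose and none fell in DNMT TKO, and 8 rose and 1 fell, Mamstr, in TET TKO. Of all genes tested 10.8% rose and 6.54% fell in WT, 10.1% and 2.42% in DNMT TKO, and 8.05% and 4.46% in TET TKO. With KAP1-dependent H3K9me3, 9 were tested and 7 rose in each line, with none falling. Several share a region, so they are not independent. The Dux array, chr10:57683401-57697999, holds both and the starts of Dux, Gm4981, Gm10807 and 4933403O03Rik, and all 4 rose in all 3 lines. Dux, the homeobox factor of the 2-cell embryo, was at 0.0555, 0.32 and 0.389 CPM in WT shEmpty and at 2.62, 4.5 and 5.6 CPM in WT shKap1 (3.9 ± 0.38, edgeR adjusted p = 1.8e-07). It reached 3.31, 5.55 and 4.41 CPM in DNMT TKO shKap1 and 8.57 and 8.93 CPM in TET TKO shKap1, with controls at most 0.176 CPM in both lines. The genes of this array are near-identical copies and only unique reads were counted. Reads that fit several copies are thus left out and the levels are uncertain. These genes were named after their values were seen. 5hmC over input across the array was 0.76 in shEmpty (6573 reads against 2273) and 1.05 in shKap1 (8909 against 3193). No direction on knockdown is given here either, since the difference between the arms depends on the scaling.

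Transposable elements overlapping these regions were counted one by one as integrants. Of 41961 integrants that overlap a region, 687 had enough reads to be tested, in 424 regions. Reads were summed over all libraries, so an integrant silent in control cells can pass through the group where it rises. Counts of rises and falls are thus not independent of this filter, here or among all integrants tested. In the WT knockdown 211 rose (30.7%) and 11 fell (1.6%), beside 12.1% and 2.05% of all integrants tested. Without regions of at least 20 kb, which was tried after seeing the data, 135 of 573 rose. Off chromosomes 6 and 8 it was 168 of 451 (37.3%). In bivalent regions 49 of 383 rose (12.8%). DNMT TKO against WT gave 47 higher and 42 lower (6.84% and 6.11%, beside 3.48% and 6.45%), with 31 higher and 15 lower off chromosomes 6 and 8, and TET TKO against WT 20 higher and 18 lower (2.91% and 2.62%, beside 1.74% and 2.33%). Without TET TKO shEmpty replicate 1 the last counts were 14 and 6, and without replicate 2 they were 15 and 1. Those for DNMT TKO were 27 and 31 without WT shEmpty replicate 2, 28 and 31 without WT shEmpty replicate 3, 30 and 29 without DNMT TKO shEmpty replicate 2, and 31 and 31 without DNMT TKO shEmpty replicate 3. The 11 that fell in the WT knockdown were 7 without WT shEmpty replicate 3, WT shKap1 replicate 1 or WT shKap1 replicate 3. The 211 lie in 110 regions, so integrants of a region are not independent, and an integrant in a gene can hold reads of that gene.

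**Figure D5:**
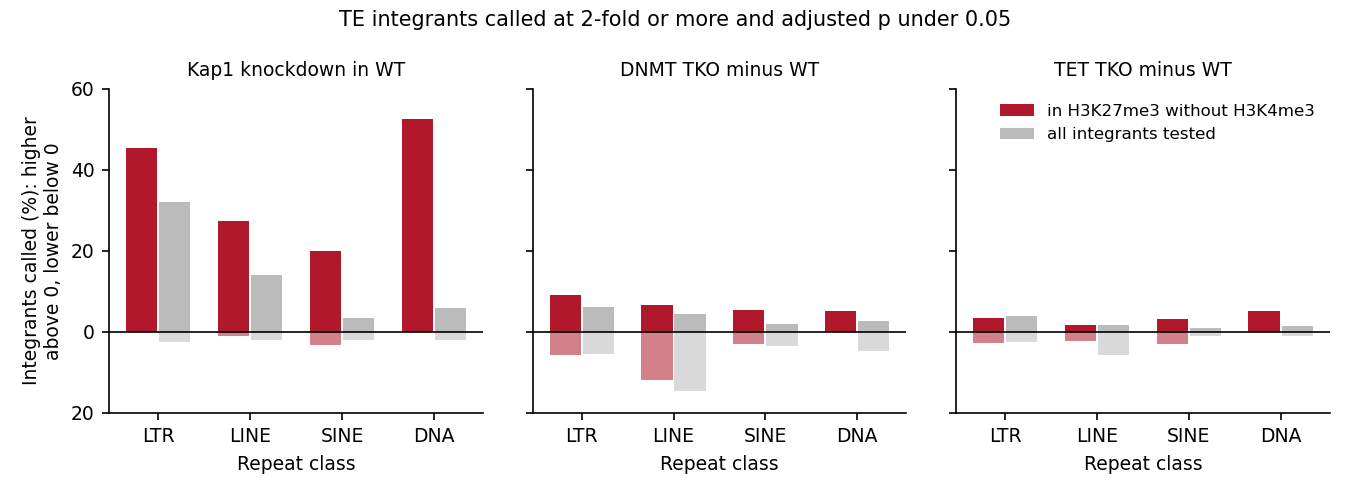
Percent of tested TE integrants called higher (above 0) or lower (below 0, paler) by repeat class, for integrants overlapping H3K27me3 regions without H3K4me3 (red) and all integrants tested (grey), in 3 comparisons. In the WT knockdown 45.5% of LTR integrants in the regions rose, beside 32.0% of all LTR integrants, and 52.6% of 19 DNA integrants, beside 5.79%.

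By class, 96 of 211 LTR integrants rose in the WT knockdown and none fell (45.5%, beside 32.0% of all LTR integrants), 50 of 183 LINEs rose (27.3%, beside 14.0%) and 55 of 274 SINEs (20.1%, beside 3.51%). MERVL elements are expressed in the 2-cell embryo and were counted by their internal part, whatever their LTR. They rose in 33 of 38 cases (86.8%), close to the 85.0% of all MERVL tested. The young L1 family L1Md_F2 rose in 12 of 33 (36.4%), beside 16.6% of all. MER5A DNA elements rose in 8 of 9 cases, beside 10.4% of all 193, but 6 of the 8 lie in the Speer array of chromosome 5. The regions with the most rising integrants were the widest one on chromosome 11 (20 of 30 tested) and chr5:14902401-14964199 (16 of 19), with 4 more regions of the same chromosome 5 array next. Input reads were dense in the chromosome 11 region and in chr5:14902401-14964199, as given above.

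Single integrants with large changes included an MMERVK10C provirus in the Speer array (chr5:15187633-15194869) at 0.0555, 0.0356 and 0.0354 CPM in WT shEmpty and 4.88, 6.11 and 7.62 CPM in WT shKap1. It was at 12.7 and 11.9 CPM in TET TKO shKap1 and at 1.87, 2.68 and 1.3 CPM in DNMT TKO shKap1. An RLTR45 provirus by Erc2 (chr14:28496573-28503932) was at 0.111, 0.213 and 0.106 CPM in WT shEmpty, at 1.88, 7.22 and 8.14 CPM in DNMT TKO shEmpty and at 42.7 and 33.7 CPM in TET TKO shEmpty (7.97 ± 0.65 against WT, edgeR adjusted p = 2.35e-05). An MTEb element (chr2:77713615-77715781) was lower in DNMT TKO than in WT (-8.01 ± 0.34), from 9.11, 7.86 and 7.93 CPM in WT to 0.0508, 0.0345 and 0 CPM in DNMT TKO.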

How the data were processed

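RNA was counted in 16 libraries of naive ES cells. The authors aligned reads to mm9 (HISAT2 2.0.1 in the submitters' processing notes) and counted unique reads per gene with featureCounts, by strand. The deposited gene, repeat and region files hold raw read counts, and repeats were counted per integrant with bedtools multicov. The deposited ChIP peak files hold scores: a MACS 1.4 score that grows with the negative log of p for H3K4me3, and for H3K27me3 a score whose unit is not given in the sources used here. The deposited overlap files give the regions found in both replicates, with 5hmC and input counts.

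Regions were split with bedtools 2.31.1 by any overlap with an H3K4me3 region. 5hmC over input was the log2 ratio of reads plus 1, scaled to all 6 region sets, in regions with at least 10 input reads. Genes and integrants with at least 16 reads were tested with edgeR 4.0.16 (robust quasi-likelihood, TMM, all 6 groups in 1 fit, Benjamini-Hochberg over all features), with gene library sizes for integrants. The fit was tested on simulated data. Named genes were the 5 largest changes each way per comparison with at least 200 reads and no overlap of groups (3 each way for differences of the knockdown effect), and list members by level or call. Genes with KAP1 or H3K9me3 at the region were named after their values were seen. The members and lists were chosen with earlier results of these data known.

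Replicate numbers paired WT and DNMT TKO libraries: deviations from group means over 9695 genes correlated at 0.402 to 0.563 between WT shEmpty and shKap1, at 0.412 to 0.583 between WT and DNMT TKO shEmpty, and at 0.244 to 0.652 within DNMT TKO. The 4 replicate 2 libraries of the 5hmC experiment were left out of comparisons because labels and file roles conflict. Alternatives covered the overlap rule, scaling, filters, limma-voom 3.58.1, DESeq2 1.42.0, the replicate block and leaving out each library. Some results are not reported here.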

Additional observations from a re-analysis of the deposited data

Results flagged for a closer look

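The knockdown effect differed from that in WT, by an edgeR test of the difference itself, for the genes below among others. Values are log2 differences of the signed effect, so a value above 0 can be a smaller fall. Adjusted p-values of this edgeR test ran from 4.49e-08 to 0.0466. Between DNMT TKO and WT the difference was above 0 for Olfml2a (7.0), 1700018A04Rik (6.87, with 2 reads in WT shEmpty), Spesp1 (4.4), Dlx4 (3.62), B430306N03Rik (3.0), Hey2 (2.7), Gm9732 (2.31), Calb2 (2.07), Neurod1 (2.06), Vrtn (1.96), Scnn1a (1.87), Tmem132c (1.78) and Kcnh3 (1.4). It was below 0 for 2810429I04Rik (-3.35), Tagln (-2.95), Mamstr (-2.73), Slc13a4 (-2.58) and Pde4c (-1.11). Trim28 itself differed by 1.28, since its knockdown was less deep in DNMT TKO, and Tet3 by -1.67. The part of the residual Trim28 in the other differences was not tested.

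Between TET TKO and WT the difference was above 0 for D630013G24Rik (4.21), Tmem132c (4.19), Loxhd1 (3.49), Gm4340 (2.62), Gm10807 (2.42), Tuba3a (2.14), Neurod1 (2.04), A530040E14Rik (1.99), Sycp1 (1.47), Sema5b (1.25) and Mov10l1 (1.2). It was below 0 for Hoxb3 (-5.31, with 2 reads in WT shEmpty), 2810429I04Rik (-5.23), Mamstr (-3.24), Hspb2 (-2.39), Aspg (-1.75), Plat (-1.66) and Tet3 (-1.3).

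In the 4 libraries of the 5hmC experiment that were given no group, reads per base over regions with at least 25% simple repeat, relative to all regions without H3K4me3, were 6.85 in the library labelled input shEmpty, 1.47 in that labelled input shKAP1, 6.21 in that labelled shEmpty and 1.4 in that labelled shKAP1. In replicate 1 the inputs were at 1.34 and 1.29 and the 5hmC libraries at 6.44 and 4.57.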

How the results depend on the processing

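The number of regions, 14905, became 6587 with only peaks above the median score in both H3K27me3 replicates and 8758 without chromosomes 6 and 8. The share with a gene start within 2 kb became 4.86% for a start inside the region, 24.5% within 5 kb and 16.8% without chromosomes 6 and 8. The share of bases in LINE, SINE, LTR or DNA repeats became 25.3% where H3K4me3 within 1 kb also removed a region, 24.5% for the higher scores and 23.3% without chromosomes 6 and 8. The level of 5hmC over input depended on the scaling. Median log2 values in shEmpty and shKap1 and of the change were 0.62, 0.46 and -0.17 when scaled to reads in H3K4me3 regions, with all 3 signs turned, and -0.36, -0.5 and -0.15 when the region with the most reads was left out of the scaling. They were -0.1, -0.09 and 0.02 for replicate 2 read by its labels, -1.04, -1.02 and -0.02 read by its file roles, and -0.56, -0.26 and 0.27 without chromosomes 6 and 8. For the higher scores the levels were -0.62 and -0.4. Labels and file roles of the replicate 2 libraries conflict, so they were given no role and averaged with nothing.

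Counts of called genes are given in the order knockdown in WT, in DNMT TKO and in TET TKO, DNMT TKO and TET TKO minus WT, and the difference of the knockdown effect in DNMT TKO and in TET TKO. With starts within 5 kb they were 530, 380, 390, 490, 315, 223 and 120, and with no H3K4me3 within 2 kb of the start 169, 131, 142, 145, 85, 46 and 28, as fewer genes were tested. With no fold threshold, 318 were called for knockdown in DNMT TKO, 394 for DNMT TKO minus WT and 232 for TET TKO minus WT. Leaving out each library gave ranges of 256 to 274, 179 to 198, 153 to 169, 225 to 256, 96 to 147, 76 to 104 and 31 to 71. The last, 61 with all libraries, was 38 and 31 without TET TKO shEmpty replicates 1 and 2 and 33 and 32 without TET TKO shKap1 replicates 1 and 2, where the lone library is assumed to vary like the other groups.

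Called integrants, 222 for knockdown in WT, 89 for DNMT TKO minus WT and 38 for TET TKO minus WT, became 146, 39 and 24 when wholly inside a region. They became 146 for WT without regions of 20 kb or more, 46 for DNMT TKO without chromosomes 6 and 8, and 20 for TET TKO with at least 50 reads. Leaving out each library gave 183 to 205, 58 to 81 and 16 to 31. The count for DNMT TKO was 58 and 59 without WT shEmpty replicates 2 and 3 and 59 without DNMT TKO shEmpty replicate 2, and that for TET TKO was 20 and 16 without TET TKO shEmpty replicates 1 and 2. With the replicate number as a block, calls were 281, 216, 229, 262, 140, 115 and 70 for genes and 217, 77 and 33 for integrants, so the pairing moved no count by over 1.5 times. The TET TKO numbers did not pair, with correlations of -0.0624 between shEmpty and shKap1.

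Named genes, regions and integrants gave 2054 values under the alternatives, of which 1974 kept their side of the threshold, 65 lost and 15 gained it, and 0 changed direction. The losses fell on 16 of 158 results and the gains on 6, which are not marked beside their values here. The causes of these shifts were not tested unless given. The alternatives without chromosomes 6 and 8 and without regions of 20 kb or more were chosen after the data were seen. At 1 library a condition, depth limits 5hmC in narrow regions.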

Other observations

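The 4 libraries of the 5hmC experiment without a group held 10261271 reads over all region sets (labelled input shEmpty), 5849673 (labelled input shKAP1), 12571208 (labelled shEmpty) and 6213882 (labelled shKAP1). Regions without H3K4me3 took 13.3%, 18.2%, 10.9% and 17.9% of these reads. In replicate 1 they took 18.2% and 17.5% in the inputs and 14.8% and 13.6% in the 5hmC libraries. Over regions of at least 25% simple repeat without any CpG, relative read density was 18.2 in the library labelled input shEmpty and 13.8 in that labelled shEmpty, against 1.93 and 1.92 in the other libraries. Over regions with under 1, 1 to 2, 2 to 4 and at least 4 CpG per 100 bases, relative read density was 0.681, 1.06, 1.45 and 1.95 in the library labelled input shEmpty and 0.632, 1.06, 1.64 and 2.33 in that labelled shEmpty. It was 1.02, 0.991, 0.992 and 1.05 in that labelled input shKAP1 and 1.02, 0.991, 1.0 and 1.04 in that labelled shKAP1. In replicate 1 the same classes were at 0.636, 1.06, 1.58 and 2.14 in the 5hmC library of shEmpty and at 1.02, 0.985, 0.991 and 1.07 in its input. Density thus climbed with CpG in a pair of the libraries without a group, as in the 5hmC library of replicate 1, and these were those whose file role is 5hmC.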
